A study of Mus musculus with 8 samples.

Results

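The 7 transcripts described here were D930030F02Rik, LOC115490439, A930037H05Rik, Gm51915, 9930014A18Rik, Gm51705 and Cog5, taken by their symbols from a table of 49997 genes. They had been selected because their normalised counts were lower both after 12-HETE and with ADAR1 p150 overexpression, so those falls are a description of the selection and support nothing by themselves. The open comparison was how deep the fall was in one treatment against the other. Of the 7 symbols, 6 are annotated as long non-coding RNAs and 1, Cog5, as a protein-coding gene.

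RNA-seq gene counts were available for 8 libraries in 4 groups of 2, all from the mouse mammary tumour line EO771. In the first experiment, cells were kept for 48 h with vehicle, which was saline with 2% DMSO, or with 12-HETE at 100 nM, a lipid that 12-lipoxygenase makes from arachidonic acid, and these libraries carry replicate numbers 4 and 5. In the second, cells were transduced with an empty vector or with a vector that overexpressed ADAR1 p150 (ADAR1_p150_OE), and these libraries carry replicate numbers 1 and 2. The study describes its editing comparison of this design as made on independent experiments, but the labels do not tie the libraries of a group to separate cultures or transductions. The p-values measure the spread between these libraries.

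ADAR1 is an enzyme that converts adenosine to inosine in double-stranded RNA, and p150 is its longer, interferon-inducible isoform, found mainly in the cytoplasm. Long non-coding RNAs are transcripts without a known protein product, and many are read from the strand opposite a coding gene. Cog5 encodes a subunit of the conserved oligomeric Golgi (COG) complex, which tethers transport vesicles to Golgi membranes and keeps glycosylation enzymes in place. No role is stated here for the 6 non-coding transcripts.

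The library totals ran from 1101767 to 1201351 counts in the 4 control libraries and from 1353124 to 1537037 in the 4 treated ones, and AY036118 took 44.4% to 50.3% of each. Adar had 181 and 140 counts in the ADAR1 p150 libraries and 2 to 8 in the other 6. Of 6 epithelial markers, Cdh1 was at 0 in every library, Epcam had 1 to 4 counts, Krt7, Krt8, Krt18 and Krt19 had 25 to 150, and the summed count of all 6 was 201 to 379. With ADAR1 p150 Krt18 was lower (log2 -0.88, adjusted p = 0.00198) and Krt8 and Krt19 were higher (log2 0.59 and 0.60, adjusted p = 0.0314 and 0.0465), and with 12-HETE Krt18 was lower (log2 -0.61, adjusted p = 0.0121), all by less than 2-fold. The summed count of 4 immune markers was 11 to 28, with 10 to 26 for Cd68 and 0 to 2 for each of Ptprc, Cd3e and Lyz2. The summed count was 1 to 11 for 3 endothelial markers, 10 to 59 for 3 fibroblast markers and 28 to 66 for 2 mesenchymal markers. Levels are given as normalised CPM, the usual CPM with library totals scaled by TMM factors, and 3 counts were worth 2.11 to 2.74 normalised CPM.

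The 7 transcripts lay at 7 separate loci of the mouse genome build GRCm38. D930030F02Rik spans chr7:144742051-144770512 on the plus strand, LOC115490439 spans chr6:135241376-135244961 on the plus strand, and A930037H05Rik spans chr11:119461200-119491235 on the minus strand. Gm51915 spans chr11:86982727-86994337 and 9930014A18Rik spans chr15:60822965-60831400, both on the plus strand. Gm51705 spans chr9:35054776-35059965, with no strand in the tables used here. Cog5 spans chr12:31654819-31937630 on the plus strand, 282812 bp in all, whereas the non-coding transcripts spanned 3586 to 30036 bp.

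Promoter sequences, from 250 bases before to 50 bases after an annotated start, were held in RefSeq for 5 of the 7 transcripts, all on GRCm38.p6. RefSeq held 3 entries for D930030F02Rik and 2 for Gm51915, and 1 window per transcript is described here. Those of the 2 transcripts with the deepest falls and of the coding gene are printed 5′ to 3′ on the strand of the gene, with letters in capitals where a searched motif matched. The windows are chr7:144741801-144742100 on the plus strand, chr6:135241126-135241425 on the plus strand and chr12:31654619-31654918 on the plus strand.
D930030F02Rik: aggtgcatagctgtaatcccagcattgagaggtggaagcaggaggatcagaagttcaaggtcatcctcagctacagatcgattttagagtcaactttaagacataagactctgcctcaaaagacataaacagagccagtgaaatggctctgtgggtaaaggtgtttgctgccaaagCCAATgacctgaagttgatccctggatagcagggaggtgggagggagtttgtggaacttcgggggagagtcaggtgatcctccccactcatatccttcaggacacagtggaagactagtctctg
LOC115490439: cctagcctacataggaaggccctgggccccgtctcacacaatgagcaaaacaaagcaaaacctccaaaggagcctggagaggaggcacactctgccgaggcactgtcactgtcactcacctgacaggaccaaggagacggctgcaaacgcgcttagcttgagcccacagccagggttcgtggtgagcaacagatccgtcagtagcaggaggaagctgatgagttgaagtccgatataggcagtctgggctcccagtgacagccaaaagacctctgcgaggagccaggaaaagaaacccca
Cog5: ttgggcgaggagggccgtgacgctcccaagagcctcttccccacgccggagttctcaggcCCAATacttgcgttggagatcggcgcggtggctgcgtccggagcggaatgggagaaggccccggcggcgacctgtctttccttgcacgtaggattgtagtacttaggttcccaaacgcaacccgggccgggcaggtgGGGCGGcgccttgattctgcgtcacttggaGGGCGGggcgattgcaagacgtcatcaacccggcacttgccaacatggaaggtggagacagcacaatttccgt

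Motifs were searched on both strands of these windows and of all 32851 RefSeq promoters. CCAAT, the CCAAT box, was matched at position -74 from the start of D930030F02Rik and at -190 from that of Cog5, and it was found in 37.4% of all promoters. GGGCGG, the GC box, was matched at 2 places in Cog5 and was found in 35.7% of all promoters. None of the other motifs was matched in the 5 windows; these were the interferon-stimulated response element core GAAANNGAA, TATAAA, the E-box CACGTG, the AP-1 site TGANTCA and the YY1 site GCCATNTT, which were found in 8.56%, 13.6%, 7.15%, 7.81% and 6.05% of all promoters. No searched motif was shared by all 5 promoters. Their GC content ran from 39.0% in Gm51915 to 66.0% in A930037H05Rik, against a median of 52.7% over all promoters.

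LOC115490439 came closest to being lost. It stood at 138 and 124 normalised CPM in the vehicle libraries, 1.43 and 2.30 after 12-HETE, 114 and 157 in the vector libraries and 8.44 and 9.07 in the ADAR1 p150 libraries. With 12-HETE these were 2 and 3 counts, which left 1.41% of the vehicle level over the summed counts (95% exact Clopper-Pearson interval 0.456 to 3.33, which covers counting error only). With ADAR1 p150 there were 12 counts in each library, which left 6.42% of the vector level (95% exact interval 4.05 to 9.74).

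D930030F02Rik was the next lowest after treatment. It stood at 333 and 299 normalised CPM with vehicle and at 13.6 and 16.1 with 12-HETE, or 4.69% of the vehicle mean. It stood at 368 and 315 with vector and at 78.1 and 70.3 with ADAR1 p150, or 21.7% of the vector mean. Gm51915, another non-coding transcript, was at 223 and 192 in the vehicle libraries, 31.4 and 32.2 after 12-HETE, 225 and 221 in the vector libraries and 95 and 109 in the ADAR1 p150 libraries. The level left was 15.3% with 12-HETE and 45.6% with ADAR1 p150.

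Cog5, the COG complex subunit, stood at 535 and 505 normalised CPM in the vehicle libraries, 94.2 and 106 after 12-HETE, 591 and 630 in the vector libraries and 299 and 321 in the ADAR1 p150 libraries. Of the control level, 19.2% was left with 12-HETE and 50.8% with ADAR1 p150, a 1.97-fold lower level in the latter. The other genes on chromosome 12 were also lower as a group, with a median log2 fold change over 213 tested genes of -0.42 with 12-HETE and -0.33 with ADAR1 p150. On the chromosomes of the other 6 transcripts the medians ran from -0.02 to 0.11 and from 0.08 to 0.15. The part of this chromosome-wide shift in the level of Cog5 was not tested.

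The remaining 3 transcripts kept a larger share of their level after 12-HETE than the 4 above. Gm51705 was at 387 and 373 normalised CPM in the vehicle libraries, 89.9 and 98.0 after 12-HETE, 394 and 419 in the vector libraries and 103 and 115 in the ADAR1 p150 libraries. The share left was 24.7% and 26.7%, close to each other. A930037H05Rik was at 1180 and 1060 in the vehicle libraries, 336 and 322 after 12-HETE, 1160 in both vector libraries, and 436 and 479 in the ADAR1 p150 libraries. The share left was 29.3% and 39.4%. 9930014A18Rik was at 575 and 516 in the vehicle libraries, 279 and 260 after 12-HETE, 571 and 682 in the vector libraries and 161 and 163 in the ADAR1 p150 libraries. It was the transcript with the order reversed, since 49.3% was left with 12-HETE and 25.9% with ADAR1 p150.

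**Figure D1:**
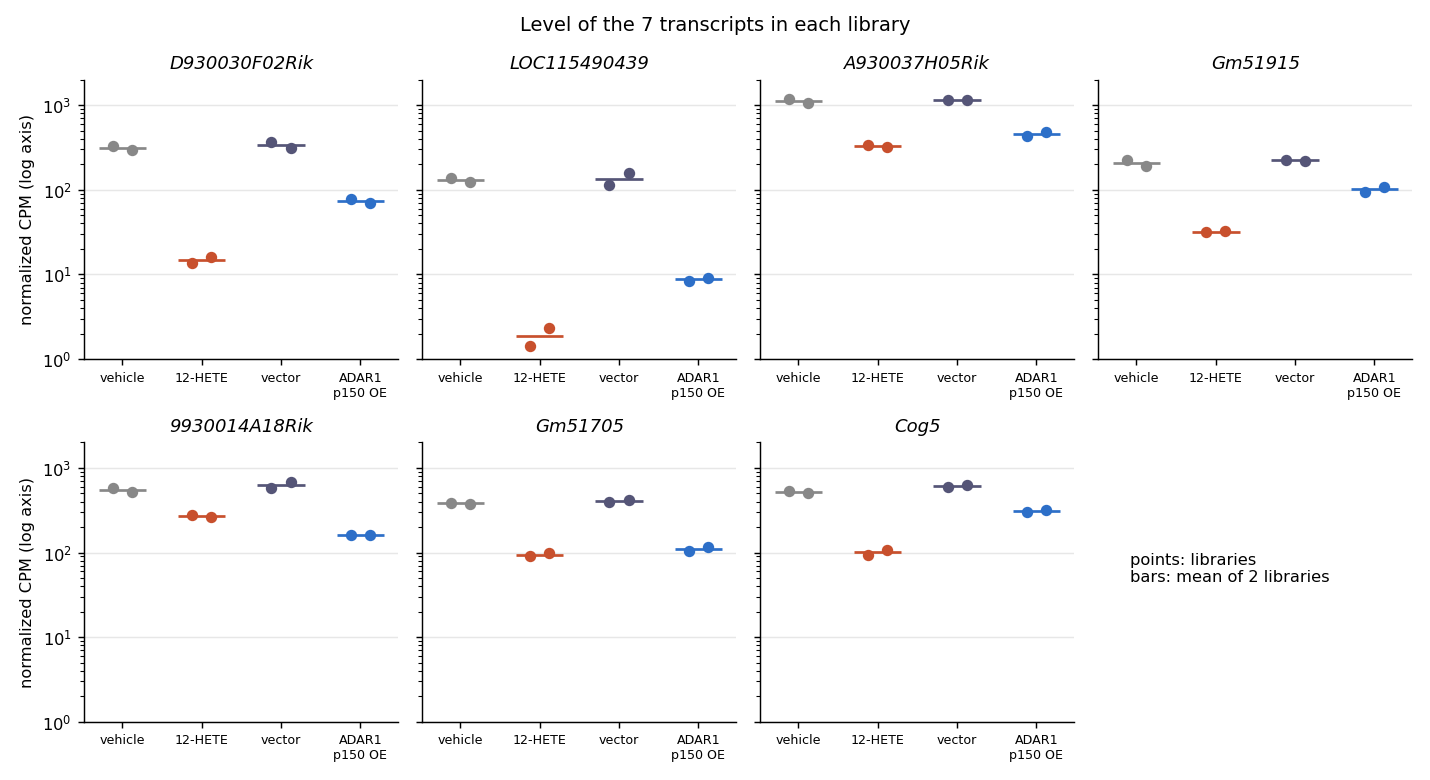
Level of each of the 7 transcripts in the 8 libraries, as normalised CPM on a log axis; points are libraries and horizontal lines are means of 2 libraries. The treated libraries lie below their own controls in every panel, from 1.43 normalised CPM for LOC115490439 with 12-HETE upwards.

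In each of the 7 transcripts, both treated libraries were below both control libraries of the same experiment in both experiments, as in 13.6% of all 6901 tested genes. With a call defined as a 2-fold change at an adjusted p under 0.05, 7 of 7 were called lower with 12-HETE, where 8.25% of all tested genes were, and 6 of 7 with ADAR1 p150, where 4.69% were. These counts follow from the selection, and nothing is read from them. The exception was Cog5. Its fold with ADAR1 p150 lay at the limit, with a log2 fold change of -0.98, and it was called in 7 of 12 alternative settings. 9930014A18Rik lay at the same limit with 12-HETE, at a log2 fold change of -1.02, and was called in 9 of 11 alternative settings. In all, 171 genes, or 2.48%, were called lower in both treatments, 6 of the 7 transcripts among them. By the mean of the 2 log2 fold changes LOC115490439 ranked 5 of these 171 from the lowest, D930030F02Rik 16, Gm51705 69, Gm51915 73, A930037H05Rik 108 and 9930014A18Rik 126. "Lost" therefore describes LOC115490439, and D930030F02Rik with 12-HETE, where under 10% was left. The other transcripts kept 15.3% to 50.8% of their control level in each treatment. In bulk RNA, fewer cells that express a transcript and less of it per cell cannot be told apart.

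**Figure D2:**
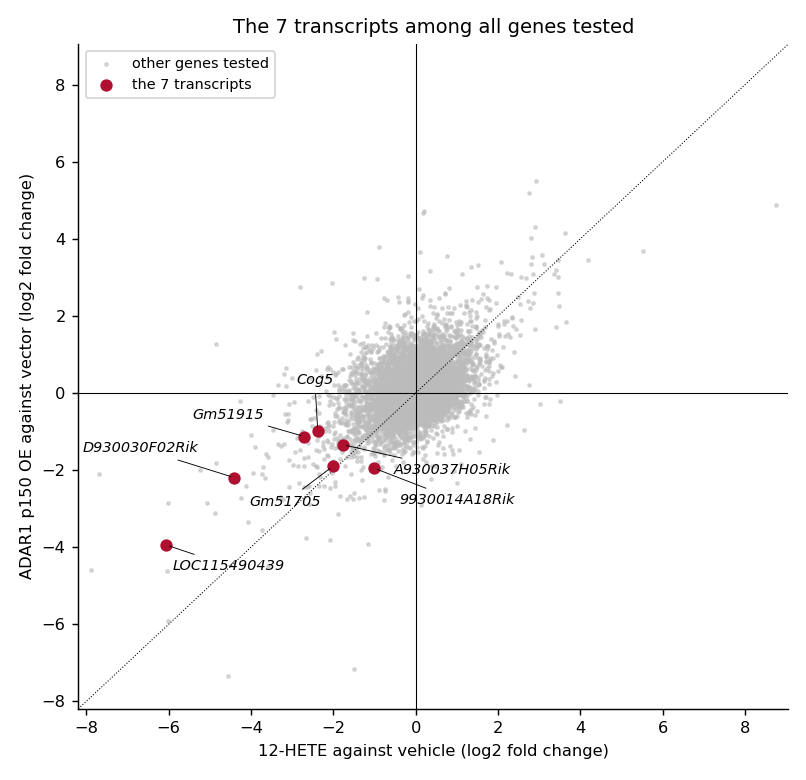
Log2 fold change of each of the 6901 tested genes with 12-HETE against vehicle (horizontal axis) and with ADAR1 p150 overexpression against vector (vertical axis), with the 7 transcripts in red and the line of equal change dotted. All 7 transcripts lie at the lower left, by selection; 9930014A18Rik lies below the dotted line and the other 6 lie above it or, for Gm51705, close to it.

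The depth of the 2 falls was then compared in 1 model, as the 12-HETE effect minus the ADAR1 p150 effect on the log2 scale. The members were not picked on this difference, but it uses the libraries they were picked on. The fall was deeper with 12-HETE for 4 transcripts that were called by the same limits, where 6.14% of all tested genes were lower and 2.19% higher by this measure. These shares cover all tested genes, and the share among the 171 genes called lower in both treatments was not taken. D930030F02Rik had a difference of -2.21 (SE 0.25, 95% interval -2.72 to -1.70, adjusted p = 1.01e-07). For Gm51915 the difference was -1.57 (SE 0.22, 95% interval -2.01 to -1.13, adjusted p = 2.99e-06). Cog5 differed by -1.40 (SE 0.15, 95% interval -1.72 to -1.09, adjusted p = 6.41e-08). LOC115490439 showed -2.13 with a wide interval, -3.37 to -0.89 (SE 0.61, adjusted p = 0.0142), since it rested on 5 counts after 12-HETE. Its adjusted p was 0.114 without 12-HETE replicate 4 and 0.0506 without ADAR1 p150 replicate 2, at -1.83 and -2.08.

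9930014A18Rik was the transcript that fell more deeply with ADAR1 p150. Its difference was 0.93 (SE 0.16, 95% interval 0.62 to 1.25, adjusted p = 5.04e-05), which was under the 2-fold limit. It passed that limit in 2 of 15 alternatives, at 1.01 without vehicle replicate 4 and 1.05 without vector replicate 1. A930037H05Rik also differed by less than 2-fold, at -0.43 (SE 0.14, 95% interval -0.71 to -0.14, adjusted p = 0.0328). That difference did not hold up against the choice of settings, since the adjusted p was above 0.05 in 10 of 15 alternatives and reached 0.356. A replicate block gave an adjusted p of 0.0774. Without vehicle replicate 4, 12-HETE replicate 4 or 5, vector replicate 1 or 2, or ADAR1 p150 replicate 2, it was 0.145, 0.0727, 0.128, 0.0828, 0.0851 and 0.126. At any size of difference, 6 of the 7 transcripts had an adjusted p under 0.05, against 15.0% of all tested genes. For Gm51705 the falls were not distinguishable, with a difference of -0.11 (SE 0.17, 95% interval -0.46 to 0.24, adjusted p = 0.738).

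**Figure D3:**
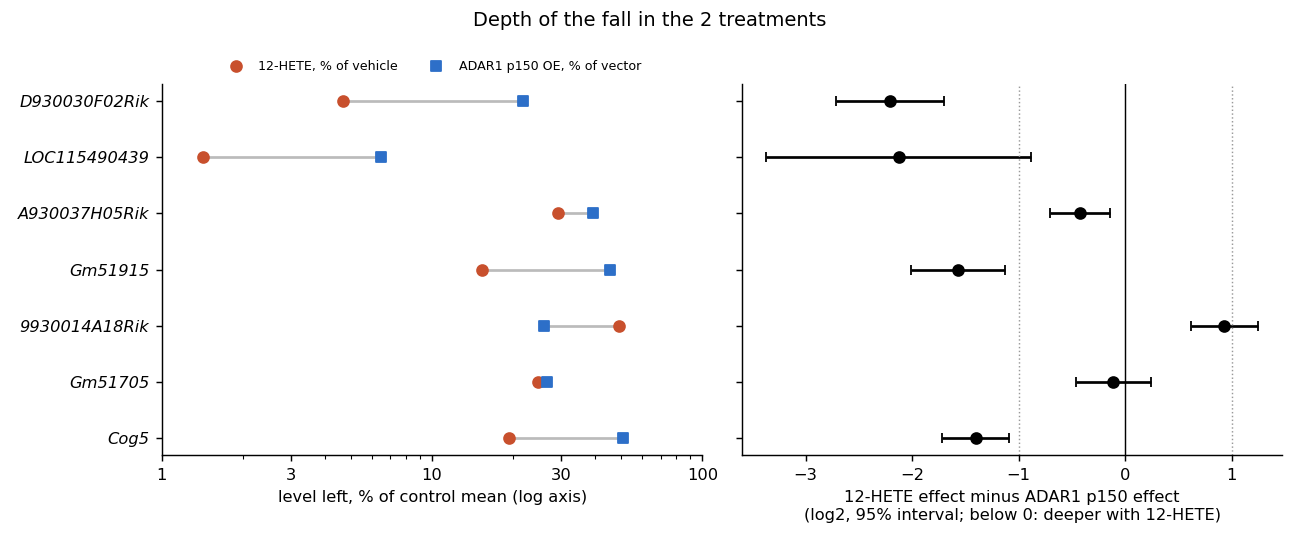
Left, level left in each treatment as a percentage of the mean of its own control libraries (log axis), for 12-HETE (circles) and ADAR1 p150 overexpression (squares). Right, 12-HETE effect minus ADAR1 p150 effect (log2, with 95% interval), with dotted lines at a 2-fold difference; 4 transcripts lie to the left of the left dotted line, 9930014A18Rik lies to the right of 0, and the interval of Gm51705 spans 0.

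The levels left in the treated libraries were also set directly against each other, a comparison that crosses the 2 experiments. The 12-HETE and ADAR1 p150 libraries did not overlap for any of the 7 transcripts, nor for 66.7% of all tested genes. Of the 7, 4 were called lower with 12-HETE, where 10.3% of all genes were called lower and 5.56% higher. The log2 differences of these 4 were -2.32 for D930030F02Rik (adjusted p = 3.07e-10), -2.18 for LOC115490439 (adjusted p = 0.00386), -1.68 for Gm51915 (adjusted p = 3.13e-09) and -1.63 for Cog5 (adjusted p = 7.55e-13). That of LOC115490439 had an adjusted p of 0.0596 without 12-HETE replicate 4. A930037H05Rik was lower with 12-HETE by less than 2-fold (-0.47, adjusted p = 0.000462) and 9930014A18Rik higher (0.73, adjusted p = 8.19e-06), so that 6 of 7 passed the adjusted p at any size, against 33.4% of all genes. Gm51705 did not pass (-0.21, 95% interval -0.49 to 0.07, adjusted p = 0.24).

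The difference between the 2 kinds of control library had no part in the selection. Vector minus vehicle ran from 0.05 in A930037H05Rik to 0.23 in Cog5 on the log2 scale, with adjusted p from 0.36 to 0.924, and edgeR called 0 of 7 transcripts, against 3 genes, or 0.0435%, of all tested. DESeq2 also called 0 of 7, and Cog5 alone had an unadjusted p under 0.05, as did 11.5% of all tested genes (95% interval of its difference 0.03 to 0.43). For Cog5 and Gm51705 both vector libraries were above both vehicle libraries, and for the other 5 the control groups overlapped. The control groups did not overlap in 43.7% of all tested genes.

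All 7 transcripts overlapped an annotated protein-coding gene, and in the 6 with a known strand the partner lay on the opposite strand. Over all tested genes, 50.3% overlapped a coding gene and 47.4% of those with a known strand had one on the opposite strand; among tested long non-coding RNAs the shares were 88.4% and 87.5%. Whether the counting used strand, and in which orientation, is not given in the sources used here. Reads of a transcript and of its partner therefore cannot be told apart where their exons overlap. Whether the counts of each symbol came from its own strand was not tested. In 8 of the 9 overlapping pairs, the transcript had more counts than its partner in every library.

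**Figure D4:**
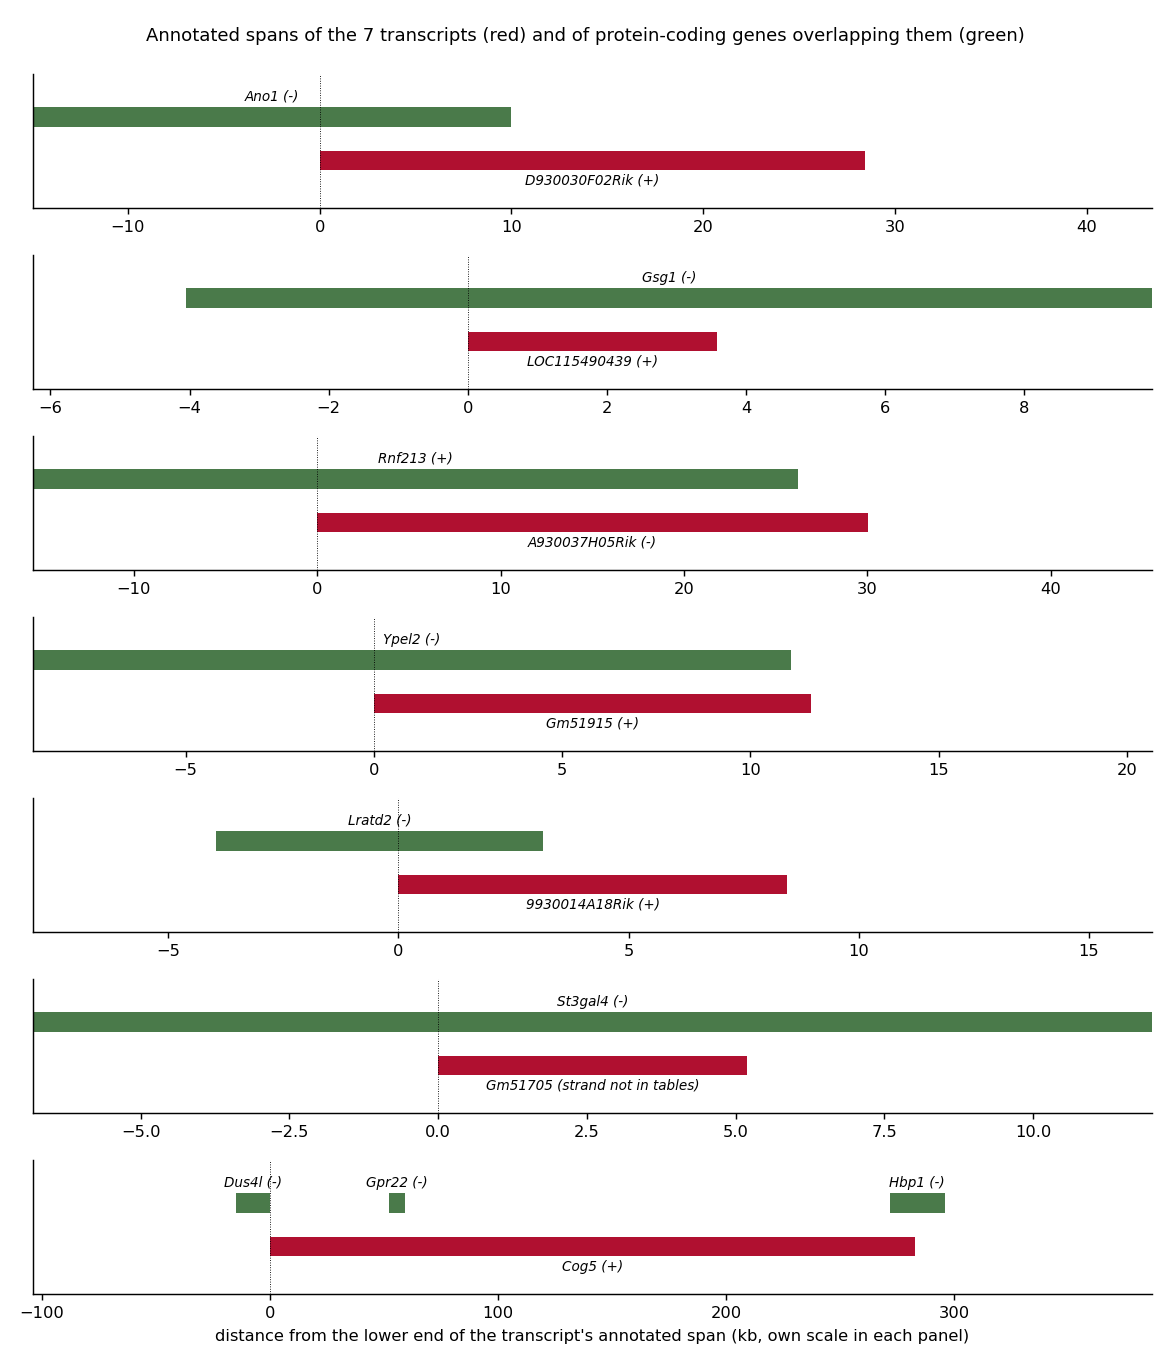
Annotated span of each of the 7 transcripts (red) and of the protein-coding genes that overlap it (green), in kb from the lower end of the transcript, with the strand in parentheses and a separate scale in each panel; spans that leave a panel are cut at its edge. Each transcript has 1 coding partner except Cog5, which has 3, and LOC115490439 and Gm51705 lie wholly inside theirs.

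Of the 4 partners that could be tested, Rnf213 was the one called with 12-HETE. It encodes a very large E3 ubiquitin ligase and overlaps A930037H05Rik over 26219 bp. Its counts were 112 and 122 in the vehicle libraries, 48 and 45 after 12-HETE, 66 and 89 in the vector libraries and 58 and 50 in the ADAR1 p150 libraries. Rnf213 fell with 12-HETE (log2 -1.52, SE 0.19, adjusted p = 9.58e-08) and, by less than 2-fold, with ADAR1 p150 (log2 -0.81, SE 0.20, adjusted p = 0.00214). Without vector replicate 2 the latter was -0.61 with an adjusted p of 0.0929. Its 2 falls did not differ past the threshold (-0.71, adjusted p = 0.0858). In the GENCODE annotation it shared 1476 of the 9082 exon bases of A930037H05Rik.

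Lratd2, which overlaps 9930014A18Rik over 3141 bp, showed the same order of treatments as that transcript. Its counts were 152 and 164 in the vehicle libraries, 151 and 189 after 12-HETE, 165 and 149 in the vector libraries and 61 and 67 in the ADAR1 p150 libraries. Lratd2 fell with ADAR1 p150 (log2 -1.59, SE 0.17, adjusted p = 6.65e-09), and with 12-HETE it was at -0.08 (SE 0.15, adjusted p = 0.737), and at 0.12 without 12-HETE replicate 4. The difference between the 2 was 1.505 (SE 0.23, adjusted p = 1.22e-05). It shared 2474 of the 7043 exon bases of 9930014A18Rik, and how far shared reads set the values of either gene was not tested.

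Cog5 overlaps 3 coding genes on the opposite strand. Hbp1, an HMG-box transcription factor, shares 1514 of the 6298 exon bases of Cog5 and lies over its far end. Its counts were 194 and 189 in the vehicle libraries, 156 and 167 after 12-HETE, 194 and 192 in the vector libraries and 234 and 249 in the ADAR1 p150 libraries. Hbp1 was the partner that exceeded its transcript, in both 12-HETE libraries, where Cog5 made up 45.5% of the counts of the pair against 76.3% with vehicle, 78.0% with vector and 63.7% with ADAR1 p150. With 12-HETE Hbp1 was at a log2 fold change of -0.43 (SE 0.13, adjusted p = 0.0128), under the 2-fold limit and not past the threshold without vehicle replicate 4 or 12-HETE replicate 4 (adjusted p = 0.0879 and 0.159) or with DESeq2 (adjusted p = 0.0866). With ADAR1 p150 it was at 0.03 (SE 0.13, adjusted p = 0.89), and the sign turned under other scalings. Gpr22, an orphan G-protein-coupled receptor gene inside Cog5, had 7 to 26 counts and did not pass (log2 -0.73 with adjusted p = 0.267, and 0.73 with adjusted p = 0.175). Dus4l, whose span meets the start of Cog5 over 48 bp, had 0 to 3 counts.

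The partners of the other 4 transcripts were too low to be tested. Ano1, a calcium-activated chloride channel gene that D930030F02Rik overlaps over 9976 bp, had 21 and 16 counts in the vehicle libraries, 0 in both 12-HETE libraries, 9 and 13 in the vector libraries and 5 and 3 in the ADAR1 p150 libraries. With the floor of 3 counts per library, Ano1 was at least 7.04-fold lower with 12-HETE than with vehicle. D930030F02Rik made up 95.3% of the counts of this pair with vehicle, 97.2% with vector and 96.2% with ADAR1 p150. With 12-HETE its summed count was 40, against 0 for Ano1. How far shared reads set the counts of Ano1 was not tested. Gsg1, which holds LOC115490439, and Ypel2, which overlaps Gm51915, each had 8 and 2 counts in the vehicle libraries and 0 in both 12-HETE libraries, so that vehicle replicate 5 was itself under the floor and no fold was given. St3gal4, a sialyltransferase gene that holds Gm51705, had 3 to 11 counts in each library.

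Within 50 kb of the 7 spans or overlapping them lay 27 further genes of the table, of which 6 could be tested. Of these, 2 were called lower with 12-HETE, Rnf213 and the non-coding Gm36640, and 1 with ADAR1 p150, Lratd2. Over all tested genes, 8.25% were called lower with 12-HETE and 4.69% with ADAR1 p150. By adjusted p alone 4 of 6 passed with 12-HETE and 3 of 6 with ADAR1 p150, against 29.3% and 25.6% of all tested genes. Gm36640, which begins 34591 bp beyond LOC115490439, had 79 and 49 counts in the vehicle libraries, 24 and 13 after 12-HETE, 72 and 60 in the vector libraries and 47 and 48 in the ADAR1 p150 libraries. It fell with 12-HETE (log2 -1.98, SE 0.29, adjusted p = 1.46e-06), and with ADAR1 p150 it was at -0.77 (SE 0.24, adjusted p = 0.016, and 0.171 and 0.0939 without vector replicate 1 or ADAR1 p150 replicate 1 and 0.114 with DESeq2). The difference between its falls was -1.21 (SE 0.38, adjusted p = 0.0272). It was not past the threshold without vehicle replicate 4 (-0.80), 12-HETE replicate 5 (-0.89), vector replicate 2 (-1.06) or ADAR1 p150 replicate 2 (-1.14), with adjusted p of 0.224, 0.203, 0.0859 and 0.0772. Nor was it with DESeq2 (adjusted p = 0.134) or with no count minimum (adjusted p = 0.0595). Kirrel3, a cell adhesion gene 13969 bp from Gm51705, was at -0.34 with ADAR1 p150 (SE 0.24, adjusted p = 0.325). With 12-HETE it was at -0.89 (SE 0.29, adjusted p = 0.021). Its adjusted p was 0.101, 0.146 and 0.0518 without vehicle replicate 5, 12-HETE replicate 4 or 12-HETE replicate 5, and 0.147 with DESeq2.

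**Figure D5:**
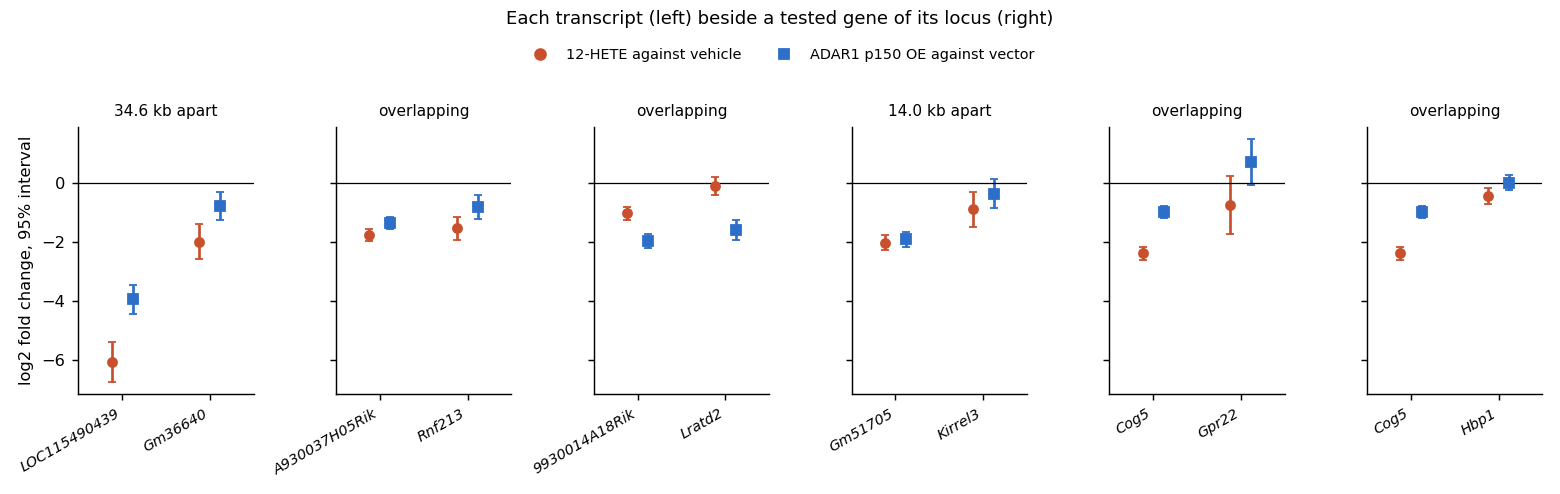
Log2 fold change with 95% interval for each transcript (left in each panel) and a tested gene of its locus (right), with 12-HETE (circles) and with ADAR1 p150 overexpression (squares). Lratd2 lies at -0.08 with 12-HETE and at -1.59 with ADAR1 p150, and 9930014A18Rik beside it at -1.02 and -1.95.

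Genes that work with Cog5 in the Golgi were read from a list of 55 genes for COG subunits, other tethers, SNAREs, the COPI coat and Golgi glycosylation enzymes, of which 14 were tested. Of the 14, edgeR called 1 lower with 12-HETE and 0 with ADAR1 p150, against 8.25% and 4.69% of all tested genes. The median log2 fold change of the 14 was 0.32 with 12-HETE and 0.17 with ADAR1 p150, against 0.004 and 0.07 over all tested genes. DESeq2 called 0 in either treatment, and 6 and 3 of the 14 had an unadjusted p under 0.05, against 39.0% and 36.6% of all tested genes. Cog4, another COG subunit, had 399 and 373 counts in the vehicle libraries, 581 and 592 after 12-HETE, 359 and 424 in the vector libraries and 439 and 517 in the ADAR1 p150 libraries. Cog4 rose with 12-HETE by less than 2-fold (log2 0.41, SE 0.11, adjusted p = 0.0046) and was at 0.0006 with ADAR1 p150 (SE 0.11, adjusted p = 0.997). Cog1 was at 0.33 with 12-HETE (adjusted p = 0.086) and at -0.02 with ADAR1 p150 (adjusted p = 0.944), and Cog8 was at -0.14 and 0.09 (adjusted p = 0.84 and 0.903). Cog2, Cog3, Cog6 and Cog7 had 0 to 5 counts in each library and were not tested, whereas Cog5 had 132 to 721. Copa, a COPI coat subunit named after its values were seen, rose by less than 2-fold with 12-HETE (log2 0.66, SE 0.12, adjusted p = 4.44e-05) and with ADAR1 p150 (log2 0.39, SE 0.12, adjusted p = 0.0152). The called gene was Golga4, a golgin of the trans-Golgi, with 18 and 14 counts in the vehicle libraries and 7 and 4 after 12-HETE (log2 -1.71, SE 0.53, adjusted p = 0.013). Without vehicle replicate 4, and without 12-HETE replicate 5, 0 genes of the list were called.

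The 7 transcripts varied together to different degrees over the 8 libraries. Pearson's r between their log2 levels ran from 0.593 for 9930014A18Rik and Cog5 to 0.996 for Gm51915 and Cog5, and the 5 lowest of the 21 values all involved 9930014A18Rik. These values describe 8 libraries in 4 groups and partly restate the selection. The 5 other genes whose log2 level correlated most highly with the mean of the 7 were Gm40855 (r = 0.997), Cyren (0.996), Ifi27l2a (0.995), 4930562F07Rik (0.994) and Gm36043 (0.993). Their r values also partly restate the selection. Gm40855, 4930562F07Rik and Gm36043 are non-coding, Cyren encodes a regulator of DNA end joining, and Ifi27l2a is an interferon-induced gene. Ifi27l2a had 206 and 214 counts in the vehicle libraries, 30 in both 12-HETE libraries, 231 and 203 in the vector libraries and 66 and 80 in the ADAR1 p150 libraries. All 5 fell further with 12-HETE than with ADAR1 p150. The log2 fold changes, with 12-HETE and then ADAR1 p150, were -1.85 and -1.26 for Gm40855 and -1.17 and -0.90 for Cyren. Ifi27l2a was at -2.99 and -1.86, 4930562F07Rik at -3.65 and -2.22, and Gm36043 at -2.49 and -1.83. A deeper fall with 12-HETE was therefore not particular to the 7. Gm40855 and Ifi27l2a lie on chromosome 12, as Cog5 does.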

How the data were processed

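RNA was measured in 8 libraries of EO771 cells. The authors aligned reads to GRCm38 with STAR, counted per gene with featureCounts and deposited raw counts. Their editing analysis removed duplicate reads with prinseq, and whether the deposited counts had this step is not stated. If they had, counts are not original read numbers. The labels and the methods name different extraction and library kits. Library depth is given with the results, and the exact intervals and the floors cover counting error only, whereas intervals of log2 values come from the fit and include the spread between libraries.

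A mean count of 10 or more over the libraries was required, which kept 6901 of 49997 genes, including all 7 transcripts. All 8 libraries were fitted together with edgeR 4.0.16 (TMM, quasi-likelihood test, R 4.3.3), with Benjamini-Hochberg adjustment over all tested genes. A call needed a 2-fold change with an adjusted p under 0.05. The SE was the log2 fold change divided by the square root of F. The mean chi-square per gene between replicates was 1.81 to 3.55, above sampling noise.

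The 7 transcripts and the gene lists were chosen with earlier results of these data known. Named genes were the 7, every tested gene overlapping them or within 50 kb, and COG subunits and called genes of the Golgi list. The 5 genes most highly correlated with the mean of the 7 were named too. Partners too low to be tested were named after their values were seen. Spans came from RefSeq GRCm38.p6, which held all 6901 symbols, and exons from GENCODE M21. Alternatives were DESeq2 1.42.0, RLE factors, library sizes without the 3 genes with the most counts, other count minimums, only the libraries compared, a replicate block and leaving out each library. RNA editing was not analysed here.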

Additional observations from a re-analysis of the deposited data

Results flagged for a closer look

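A difference between the effects of the 2 treatments was tested as the 12-HETE effect minus the ADAR1 p150 effect (log2). It had an adjusted p under 0.05 for 6 of the 7 transcripts and for 2 genes of their loci, against 15.0% of all tested genes. The difference uses the libraries on which the 7 were picked. It was -2.21 for D930030F02Rik, -2.13 for LOC115490439, -1.57 for Gm51915 and -1.40 for Cog5, each deeper with 12-HETE. For LOC115490439 the adjusted p was not under 0.05 in 2 of 14 alternatives. For A930037H05Rik it was -0.43, with an adjusted p above 0.05 in 10 of 15 alternatives, and for 9930014A18Rik it was 0.93, deeper with ADAR1 p150. Among the genes of the same loci it was 1.505 for Lratd2 and -1.21 for Gm36640, the latter with an adjusted p of 0.134 with DESeq2, 0.0595 with no count minimum and up to 0.224 when 1 library was left out.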

How the results depend on the processing

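With 2 libraries per group, depth limited LOC115490439 after 12-HETE and the partners with few counts. A minimum of 10 counts in every library removed LOC115490439 and left 6 of the 7 transcripts. The falls of the 7, whose direction the selection fixed, ran from -6.42 to -0.94 (12-HETE) and from -4.15 to -0.93 (ADAR1 p150) over the alternatives. For the difference between the falls, 92 values of the 7 kept their direction and side of the adjusted p, and the other 12, for LOC115490439 and A930037H05Rik, kept their direction.

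The counts of called genes moved by over 1.5 times as follows. For 12-HETE the 991 called genes became 2021 by adjusted p alone, 590 with DESeq2 and 481 with 10 counts in every library. For ADAR1 p150 the 884 became 1766, 434 and 429 in that order, and for 12-HETE against ADAR1 p150 libraries the 1092 became 2305, 582 and 525. The 575 genes with a difference between the effects became 1033 by adjusted p alone and 249 with DESeq2. For vector against vehicle the 3 became 8 by adjusted p alone, 0 with DESeq2, 6 with RLE factors, 8 without the 3 genes with the most counts, 0 with 10 counts in every library, 11 with no minimum, 1 with only the libraries compared, and 2 to 22 when 1 library was left out. At the loci, the 2 genes called with 12-HETE became 4 by adjusted p alone and 5 with no minimum, and the 1 with ADAR1 p150 became 3 and 3. Of the Golgi list, the 1 gene called with 12-HETE became 3 by adjusted p alone, 0 with DESeq2, 0 with 10 counts in every library and 0 to 1 when 1 library was left out. The 0 with ADAR1 p150 became 1 by adjusted p alone, 1 with no minimum and 0 to 1 when 1 library was left out. The cause of these moves beyond the number of genes tested was not tested. The counts for the Golgi list in this section take falls and rises together. By adjusted p alone its genes were 1 lower and 2 higher with 12-HETE, and 0 lower and 1 higher with ADAR1 p150.

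Signs turned for small values. Hbp1 with ADAR1 p150 (0.03) became -0.025 with DESeq2, -0.026 with RLE factors, -0.021 without the 3 genes with the most counts, -0.073 with no minimum, -0.021 with only the libraries compared and -0.066 to 0.13 when 1 library was left out. Lratd2 with 12-HETE ran from -0.31 to 0.12 when 1 library was left out. Vector against vehicle then ran from -0.0055 to 0.22 in D930030F02Rik, -0.20 to 0.27 in LOC115490439 and -0.0012 to 0.13 in A930037H05Rik.

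Same-numbered libraries deviated with a correlation of -0.0774 for vehicle and 12-HETE and -0.112 for vector and ADAR1 p150, so the numbers were not read as pairs. With a replicate block, 942 genes were called with 12-HETE, 813 with ADAR1 p150 and 506 for the difference, and among the 7 the block moved the difference of A930037H05Rik past an adjusted p of 0.05 (0.0774) and changed no other call. With the ADAR1 p150 numbers crossed in the replicate block, a pairing chosen after seeing the data, 921 genes were called with ADAR1 p150, 633 for the difference and 1 of the Golgi list.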
